A study of Mus musculus with 4 samples.

Results

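Lymphotoxins, tumour necrosis factor and a set of secreted chemokines, with interleukin 10, were followed in 2 B-cell lymphoma lines and 2 samples of B220+ splenocytes. The set held 10 genes, Lta, Ltb, Tnf, Ccl3, Ccl4, Ccl5, Ccl17, Ccl22, Cxcl10 and Il10. Its probes were all non-control probes whose gene name on the array was one of these, which gave 11 probes of 41174 and 10 of 27745 gene names. The lymphoma lines were established independently of each other from mice transgenic for dopamine receptor 3. The splenocytes came from C57BL/6N mice and carry B220, the B-cell form of the CD45 surface protein. Strain C57BL/6N and female sex were given for all 4 samples. Each sample was hybridised to 1 array, so each line stands for itself and has no replicate of its own. The transgene's promoter, the ages, and whether the splenocyte samples came from separate mice are not given in the sources used here. The p-values therefore measure only how far these 4 samples spread, and that spread may be technical. The lines grew as established cells, whereas the splenocytes were taken from spleen, and this difference cannot be told apart from lymphoma against normal.

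Lymphotoxin alpha and beta and tumour necrosis factor are related cytokines whose genes lie side by side in the major histocompatibility complex. Lymphotoxin on B cells acts on stromal cells that carry its receptor and keeps up the follicles of the spleen. Chemokines are small secreted proteins that draw cells bearing the matching receptor: CCL3, CCL4 and CCL5 are inflammatory chemokines, CCL17 and CCL22 act on CCR4, and CXCL10 on CXCR3. Interleukin 10 is a secreted cytokine that dampens inflammation and is made by some B cells, among other cells.

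The members moved in both directions between lines and splenocytes. Ccl17, Ccl22 and Il10 were higher in the lines, and Lta, Ltb, Tnf, Ccl3, Ccl4, Ccl5 and Cxcl10 were lower. All 10 genes, 3 higher and 7 lower, passed limma's moderated test at an adjusted p under 0.05 over all 27402 tested probes. In the same fit 63.5% of the 18802 tested genes passed, 30.7% as higher and 32.8% as lower, and 64.8% of the probes passed, 32.3% as higher and 32.5% as lower. The members' median difference was −1.70 on the log2 scale, against −0.05 over all tested genes. Both lines lay on 1 side of both splenocyte samples for all 10 members, as they did for 41.2% of the tested genes above and 43.9% below. A probe was tested if it was well above background on at least 2 of the 4 arrays. All 11 member probes met this, 8 of them on every array, but Ccl22 met it through the lines alone and the second Ccl5 probe through the splenocytes alone, so these had to differ.

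Values below are the deposited processed signal of a probe, as log2 over the 75th percentile of its array, so that 0 is a probe as bright as that percentile. They compare 1 probe between samples and cannot be set against another probe's. The splenocyte 2 array was dimmer: its 75th percentile was 514 units of processed signal, against 1122 and 1315 in lines 1 and 2 and 1078 in splenocytes 1. The arrays had 26064 and 25904 probes well above background in lines 1 and 2, and 27318 and 24972 in splenocytes 1 and 2. No spot was saturated and no member spot was flagged. All 9 B-cell markers examined, among them Cd79a, Cd79b and Ms4a1, were well above background in both lines and both splenocyte samples, as the B-cell label says, and 6 of the 9 were lower in the lines.

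**Figure D1:**
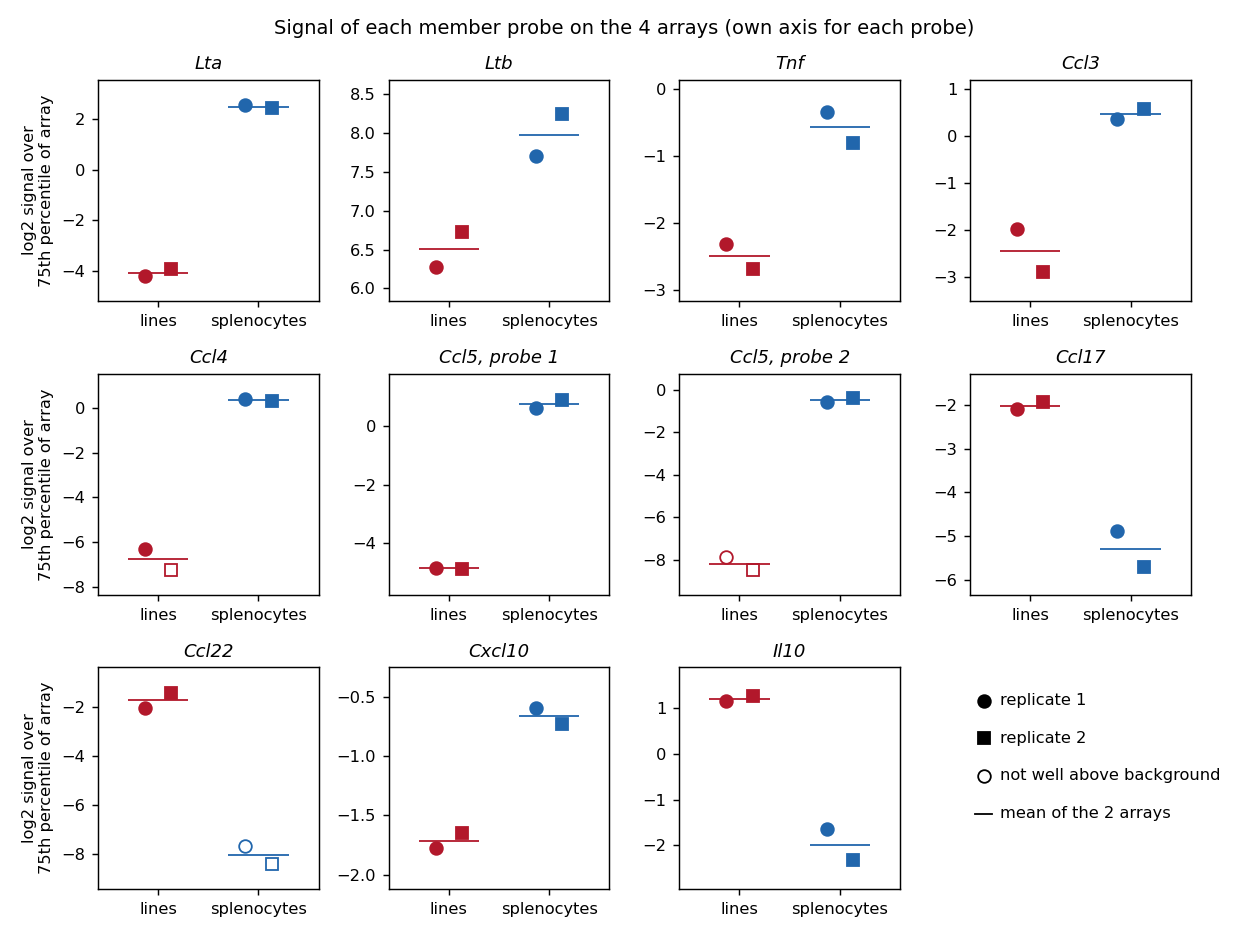
Signal of each of the 11 member probes on the 4 arrays, as log2 over the array's 75th percentile, with lines left and splenocytes right and a separate axis for each probe. Filled points are well above background, open points are not, and bars are the group means; the groups do not overlap for any probe.

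Of the lymphotoxin and tumour necrosis factor cluster, Lta changed most. Lta, which encodes the soluble lymphotoxin subunit, was measured at −4.17 and −3.92 in lines 1 and 2, against 2.52 and 2.42 in splenocytes 1 and 2. It averaged −4.05 ± 0.18 in the lines and 2.47 ± 0.076 in the splenocytes (SD, n = 2 each). Both lines thus had a weak but measurable Lta signal, far below either splenocyte sample. The difference was −6.52 ± 0.17 (SE), a fall of 91.7-fold (limma, adjusted p = 0.000124). In processed signal, Lta gave 62.2 and 86.6 units in the lines and 6199 and 2746 units in the splenocytes. Under normexp background correction, which adds an offset of 50 units, Lta was 48.6-fold lower.

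Ltb, which encodes the membrane-anchoring subunit that holds lymphotoxin alpha at the cell surface, was much less affected. Its probe read 6.27 and 6.73 in lines 1 and 2, against 7.71 and 8.25 in splenocytes 1 and 2. The groups averaged 6.50 ± 0.33 in the lines and 7.98 ± 0.38 in the splenocytes (SD, n = 2 each). Ltb therefore stayed far above the 75th percentile of all 4 arrays while lying lower in both lines. Its difference was −1.48 ± 0.28 (SE), a 2.79-fold fall (limma, adjusted p = 0.00988), and its adjusted p was 0.0399 without splenocyte sample 2. Tnf, the third gene of the cluster, read −2.30 and −2.68 in lines 1 and 2 and −0.34 and −0.80 in splenocytes 1 and 2. It fell by 1.92 ± 0.24 (SE) on the log2 scale, or 3.79-fold (limma, adjusted p = 0.00323). The neighbouring genes were thus all lower in the lines, by unequal amounts: 91.7-fold for Lta, 3.79-fold for Tnf and 2.79-fold for Ltb. The probes lie within a few kilobases on chromosome 17 in the mm8 build, Ltb at 34804204 to 34804263, Tnf at 34807902 to 34807961 and Lta at 34811382 to 34811441.

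The promoter sequences of these genes are shown because the 3 genes sit side by side and fell by different amounts. Promoters were available from RefSeq, build GRCm38.p6, for 7 of the 10 members, as the 250 bases before the start. Capitals mark motif matches on either strand.
Lta promoter, chr17:35205352-35205601, minus strand: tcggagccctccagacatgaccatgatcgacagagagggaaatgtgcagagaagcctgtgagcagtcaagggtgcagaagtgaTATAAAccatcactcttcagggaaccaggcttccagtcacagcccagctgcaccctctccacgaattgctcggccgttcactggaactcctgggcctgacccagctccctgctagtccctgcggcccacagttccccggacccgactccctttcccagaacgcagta
Ltb promoter, chr17:35194257-35194506, plus strand: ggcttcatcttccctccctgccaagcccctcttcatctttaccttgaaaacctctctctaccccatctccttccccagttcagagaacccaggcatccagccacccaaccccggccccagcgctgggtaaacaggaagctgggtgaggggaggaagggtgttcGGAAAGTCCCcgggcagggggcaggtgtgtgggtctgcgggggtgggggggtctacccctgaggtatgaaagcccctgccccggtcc
Tnf promoter, chr17:35202008-35202257, minus strand: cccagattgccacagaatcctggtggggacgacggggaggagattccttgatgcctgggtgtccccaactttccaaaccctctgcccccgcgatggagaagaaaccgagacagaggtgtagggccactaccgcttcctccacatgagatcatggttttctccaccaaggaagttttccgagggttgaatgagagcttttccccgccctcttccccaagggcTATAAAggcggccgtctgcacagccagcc
The Ltb window held a match to the kappaB motif, the sequence bound by NF-kappaB, 87 bases before the start on the reverse strand. The Tnf window held TATAAA, the TATA box, 29 bases before the start, and the Lta window held the same letters 167 bases before the start. Neither the Tnf nor the Lta window held a kappaB match. Of 32851 promoters of this length, 7.25% held a kappaB match and 12.4% held TATAAA. A match is a description of the letters, and the arrays did not measure binding.

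Lta, Tnf and Il10 were each printed at 10 spots per array, which gives a measure of the array's own error. The coefficient of variation over the 10 spots was 3.90 to 6.34% for Lta, 2.81 to 5.56% for Tnf and 3.35 to 5.51% for Il10, over the 4 arrays. On the log2 scale the spot SD did not exceed 0.0911 for Lta, 0.0812 for Tnf and 0.0786 for Il10. All 10 spots of each were well above background on every array. The differences of Lta, Tnf and Il10 between lines and splenocytes were far larger than this spread, which covers error within an array and not between samples.

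**Figure D2:**
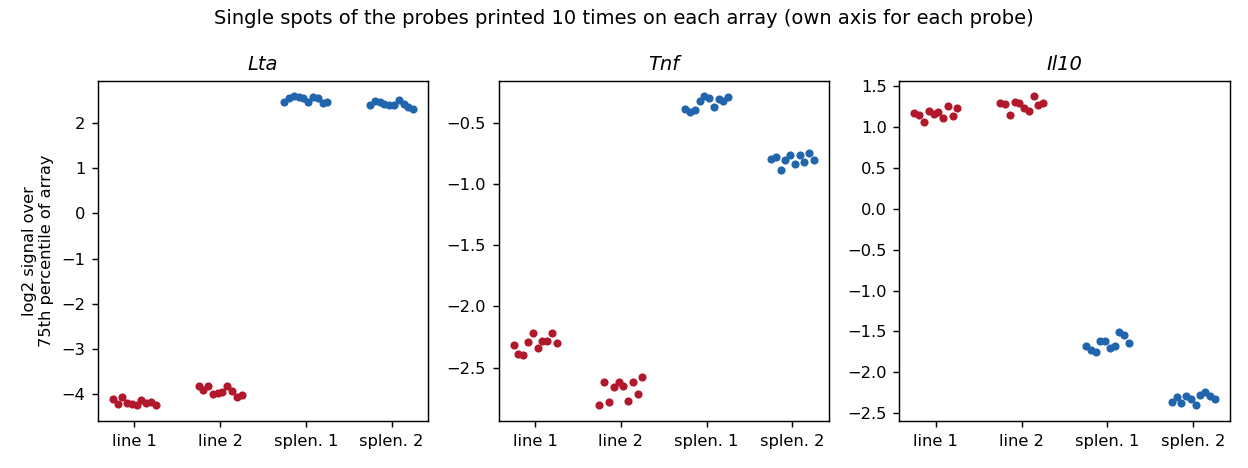
Log2 signal over the array's 75th percentile of the 10 single spots of Lta, Tnf and Il10 on each array, lines left and splenocytes right, with a separate axis for each gene. The 10 spots of an array lie close together next to the distance between lines and splenocytes.

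The inflammatory chemokines of chromosome 11 were all lower in the lines. Ccl3, which encodes macrophage inflammatory protein 1 alpha, read −1.98 and −2.89 in lines 1 and 2, against 0.36 and 0.57 in splenocytes 1 and 2. It was above background on every array, with line 2 the lowest. Ccl3 fell by 2.90 ± 0.35 (SE) on the log2 scale, or 7.47-fold (limma, adjusted p = 0.00269). Ccl4, its close relative and neighbour, read −6.31 and −7.26 in lines 1 and 2 and 0.42 and 0.32 in splenocytes 1 and 2. Line 1 was well above background for Ccl4 and line 2 was not, so the fitted fold of 142.8 rests on 1 measured line, and it was 127 with line 2 at the detection floor of its array. The fitted difference was −7.16 ± 0.35 (SE; limma, adjusted p = 0.000355), and the fitted fold was 21.1 under normexp. Ccl3 was thus measured in both lines, and Ccl4 was at or near background in them. Their probes lie at 83464051 to 83464110 for Ccl3 and 83480745 to 83480804 for Ccl4 (chromosome 11, mm8).

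Ccl5, which encodes RANTES, a chemokine known from T cells and natural killer cells, had 2 probes, at 83341989 to 83342048 and at 83342140 to 83342195 of chromosome 11 (mm8). The first probe read −4.83 and −4.87 in lines 1 and 2, against 0.62 and 0.90 in splenocytes 1 and 2. Its mean was −4.85 ± 0.026 in the lines and 0.76 ± 0.20 in the splenocytes (SD, n = 2 each). The lines were nearly equal and far below the splenocytes, with a difference of −5.61 ± 0.17 (SE), or 49.0-fold (limma, adjusted p = 0.000153), and 20.8-fold under normexp. The second Ccl5 probe was not well above background in either line. It read −7.89 and −8.50 in the lines and −0.59 and −0.41 in the splenocytes, which makes it at least 99.9-fold lower in the lines (limma, adjusted p = 0.000177), against a fitted fold of 14.6 under normexp. Of all tested genes, 5.28% were measured in both splenocyte samples and dim in both lines. At least N-fold here sets the brighter group's mean against the lowest signal well above background on each dim array, or the probe's own where higher. The probes gave the same direction and differed in size and in whether the lines were above background.

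Ccl17 and Ccl22, which encode the CCR4 ligands TARC and MDC, were higher in the lines. Ccl17 (chromosome 8, 97700999 to 97701058, mm8) read −2.11 and −1.94 in lines 1 and 2, against −4.89 and −5.69 in splenocytes 1 and 2. It averaged −2.02 ± 0.12 in the lines and −5.29 ± 0.57 in the splenocytes (SD, n = 2 each), and was well above background on all 4 arrays. The difference was 3.27 ± 0.31 (SE), a 9.65-fold rise (limma, adjusted p = 0.00148). Under normexp, Ccl17 was 2.81-fold higher. Ccl22 (97639938 to 97639997) read −2.04 and −1.41 in lines 1 and 2, and −7.64 and −8.37 in splenocytes 1 and 2. Both lines were well above background for Ccl22 and neither splenocyte sample was. It was at least 30.2-fold higher in the lines (limma, adjusted p = 0.000475), against a fitted fold of 4.53 under normexp. With 1 sample left out, this bound ran from 20.8-fold without splenocyte sample 1 to 43.8-fold without splenocyte sample 2. In processed signal Ccl22 gave 272 and 495 units in the lines and 5.41 and 1.56 units in the splenocytes. Of all tested genes, 3.61% had this pattern, measured in both lines and below that limit in both splenocyte samples.

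The Ccl17 and Ccl22 promoters are shown as those of the chemokines that rose.
Ccl17 promoter, chr8:94810203-94810452, plus strand: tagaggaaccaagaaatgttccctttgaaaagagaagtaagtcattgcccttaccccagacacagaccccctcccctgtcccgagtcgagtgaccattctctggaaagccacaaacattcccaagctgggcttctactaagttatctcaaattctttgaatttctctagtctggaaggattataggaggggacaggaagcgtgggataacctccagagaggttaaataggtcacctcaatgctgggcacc
Ccl22 promoter, chr8:94745434-94745683, plus strand: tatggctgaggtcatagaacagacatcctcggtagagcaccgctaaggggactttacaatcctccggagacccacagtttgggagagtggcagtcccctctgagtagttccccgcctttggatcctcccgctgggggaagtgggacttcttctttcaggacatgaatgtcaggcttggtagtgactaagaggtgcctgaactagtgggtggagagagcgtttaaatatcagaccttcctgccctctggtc
Neither window held a match to the motifs searched, which were kappaB, TATAAA, the AP-1 site TGANTCA and the interferon-stimulated response element. The Ccl3 window held none of these either.

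Cxcl10, which encodes an interferon-induced ligand of CXCR3, had the smallest change. Its probe (chromosome 5, 93421955 to 93422014, mm8) read −1.78 and −1.65 in lines 1 and 2, against −0.60 and −0.73 in splenocytes 1 and 2. It averaged −1.71 ± 0.091 in the lines and −0.66 ± 0.098 in the splenocytes (SD, n = 2 each). The samples of each group were close and the groups did not overlap, with a fall of 1.05 ± 0.15 (SE) on the log2 scale, or 2.07-fold (limma, adjusted p = 0.00468). Centring each array on its median moved Cxcl10 to 1.56-fold lower. The Cxcl10 promoter is shown because it held the most motif matches of the 7 windows.
Cxcl10 promoter, chr5:92348890-92349139, minus strand: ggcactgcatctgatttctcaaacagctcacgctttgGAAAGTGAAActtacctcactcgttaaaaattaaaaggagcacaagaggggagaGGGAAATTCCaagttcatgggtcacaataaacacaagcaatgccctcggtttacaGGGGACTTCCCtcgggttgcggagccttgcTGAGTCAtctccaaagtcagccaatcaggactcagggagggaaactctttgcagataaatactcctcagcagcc
It held kappaB matches 159, 104 and 103 bases before the start, the last pair overlapping. It also held an interferon-stimulated response element 213 bases before the start on the reverse strand and an AP-1 match at 74 bases. Of all promoters of this length, 2.98% held the response element and 6.75% the AP-1 site.

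Il10 was higher in both lines. Its probe (chromosome 1, 132851912 to 132851971, mm8) read 1.17 and 1.27 in lines 1 and 2, against −1.65 and −2.32 in splenocytes 1 and 2. The mean was 1.22 ± 0.073 in the lines and −1.98 ± 0.48 in the splenocytes (SD, n = 2 each). The lines were above their arrays' 75th percentile and the splenocytes below theirs. The difference was 3.20 ± 0.27 (SE), a 9.19-fold rise (limma, adjusted p = 0.00112). Among relatives of interleukin 10 encoded next to it, Il24, chosen after its values were seen, differed by 0.57 ± 0.14 (SE; limma, adjusted p = 0.0224), and Il19 and Il20 were not tested because fewer than 2 arrays were above background.

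**Figure D3:**
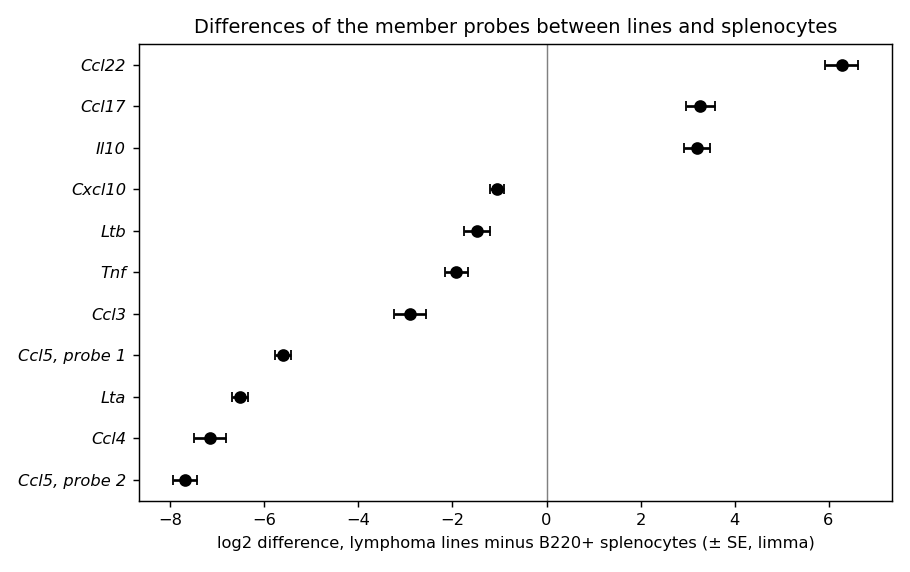
Log2 difference, lines minus splenocytes, of each member probe with its standard error from limma. Ccl22, Ccl17 and Il10 lie right of 0 and the other probes left, from −1.05 for Cxcl10 to −7.69 for the second Ccl5 probe; for Ccl22 and that probe the fitted value is not a bound.

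Both lines lay on the same side of the splenocytes but were not equal. The distance between line 1 and line 2 was between 0.036 and 0.95 on the log2 scale over the 11 probes, and that between the splenocyte samples between 0.098 and 0.80. The widest gap between lines was that of Ccl4, where line 2 was not above background, followed by Ccl3. Over all tested genes the median distance between the lines was 0.23, which 7 of the 11 member probes exceeded, and 6.62% of genes differed by 2-fold or more. With 1 array per line these distances have no test.

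Receptors of the members were mostly lower in the lines. Of 12 receptors, 10 were tested, and 8 were lower, 1 higher and 1 not called, with a median of −1.21. For this and the later lists, the share over all tested genes was 30.7% higher and 32.8% lower. In these lists and among the neighbours below, a gene given as at least N-fold was tested through 1 group alone. Its direction was thus set by the filter, and the counts include such genes. Cxcr3, the CXCL10 receptor, read −3.47 and −4.11 in lines 1 and 2 and 1.70 and 1.65 in splenocytes 1 and 2, a 44.2-fold fall (limma, adjusted p = 0.000325). Ccr4, the receptor of CCL17 and CCL22, was not well above background on any array. The Cxcr3 probe thus fell, as the Cxcl10 probe did. Il10ra and Il10rb, the chains of the interleukin 10 receptor, were 5.37-fold and 2.01-fold lower (limma, adjusted p = 0.00065 and 0.00459). Tnfrsf1a and Tnfrsf1b, the receptors of tumour necrosis factor, were 3.17-fold and 1.92-fold lower (limma, adjusted p = 0.0013 and 0.0219). The Tnfrsf1b call was lost on median centring (adjusted p = 0.143) and without splenocyte sample 1 or 2 (0.0782 and 0.0887). Ltbr, the lymphotoxin beta receptor of stromal and myeloid cells, was at least 4.36-fold lower (limma, adjusted p = 0.00385) and not above background in either line. Tnfrsf14, a receptor of lymphotoxin alpha and of LIGHT, differed by −0.10 ± 0.18 (SE; limma, adjusted p = 0.652).

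Other ligands of the tumour necrosis factor superfamily split between rises and falls. Of 15 ligands 10 were tested, with 4 higher, 5 lower and 1 not called, and a median of −0.37. Tnfsf9, which encodes the 4-1BB ligand, read 0.20 and −0.70 in lines 1 and 2 and −5.67 and −5.68 in splenocytes 1 and 2, a 43.1-fold rise (limma, adjusted p = 0.000571). Tnfsf14, which encodes LIGHT, another ligand of the lymphotoxin beta receptor, was 17.6-fold higher (limma, adjusted p = 0.000453). Cd70, the ligand of CD27, was at least 10.2-fold higher (limma, adjusted p = 0.00138). Under normexp the fitted fold of Cd70 was 1.82 and its call was lost (limma, adjusted p = 0.0694). Among the falls, Tnfsf10, which encodes TRAIL, was 4.91-fold lower (limma, adjusted p = 0.00155). Fasl and Tnfsf8, the ligands of FAS and CD30, were at least 4.09-fold and at least 3.03-fold lower and not above background in either line. Thus the LIGHT gene rose where the Lta and Ltb probes fell.

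Other chemokines changed in both directions. Of 29 chemokines 27 had a probe and 13 were tested, with 3 higher, 7 lower and 3 not called, and a median of −1.53. Cx3cl1, which encodes fractalkine and lies between Ccl22 and Ccl17, was 14.3-fold higher (limma, adjusted p = 0.00132). Ccl1, which encodes the CCR8 ligand, was at least 10.4-fold higher, and Ccl27a was 1.53-fold higher (limma, adjusted p = 0.00137 and 0.0204). Both calls were lost under normexp (adjusted p = 0.0894 and 0.163), and that of Ccl27a also without line 1, splenocyte sample 1 or splenocyte sample 2 (0.0533, 0.0789 and 0.128). Cxcl9, which with CXCL10 and CXCL11 acts on CXCR3, was at least 3.59-fold lower (limma, adjusted p = 0.00117), and Cxcl11 was not above background on any array. Xcl1, which encodes lymphotactin, was at least 4.17-fold lower (limma, adjusted p = 0.00109). Ccl6, next to the Ccl3 cluster, was lower with 1 of 2 lines above background (limma, adjusted p = 0.0101). Its fitted fold was 25.5, and 14.2 with line 2 at the detection floor of its array. With that floor, Ccl6 was 21.5-fold lower without splenocyte sample 1 and 9.32-fold lower without splenocyte sample 2.

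Among other cytokines that B cells can make, 13 of 16 were tested, with 3 higher, 8 lower and 2 not called, and a median of −1.18. Vegfa, a growth factor of blood vessels, was 22.1-fold higher (limma, adjusted p = 0.000363). Ebi3, a shared subunit of interleukins 27 and 35, was 3.99-fold higher and Il4 was 2.50-fold higher (limma, adjusted p = 0.00106 and 0.00734), and the Il4 call was lost under normexp (adjusted p = 0.469). Ifng, which encodes interferon gamma, was at least 62.8-fold lower and Il1b, which encodes interleukin 1 beta, at least 49.3-fold lower (limma, adjusted p = 0.000323 and 0.000925). Neither was above background in a line. The bound for Il1b was 84.4-fold without splenocyte sample 1 and 28.8-fold without splenocyte sample 2. Il18, a cytokine that drives interferon gamma, was 7.60-fold lower (limma, adjusted p = 0.000485).

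Genes that govern the release of tumour necrosis factor and the stability of its RNA were read beside Tnf. All 13 were tested, with 2 higher, 5 lower and 6 not called, and a median of −0.34. Zfp36, which encodes tristetraprolin, a protein that brings about decay of Tnf RNA, read −0.82 and −0.31 in lines 1 and 2 and 4.71 and 5.02 in splenocytes 1 and 2. It was 43.2-fold lower (limma, adjusted p = 0.000308), and its relative Zfp36l1 was 8.36-fold lower (limma, adjusted p = 0.000398). Rhbdf2, which encodes the carrier of the sheddase ADAM17, was 11.2-fold lower, whereas Rhbdf1, its relative, was 2.22-fold higher (limma, adjusted p = 0.000298 and 0.0069). Adam17 itself differed by −0.48 ± 0.27 (SE; limma, adjusted p = 0.181). Elavl1, which encodes an RNA-stabilising protein, was 1.91-fold higher (limma, adjusted p = 0.0121), with an adjusted p of 0.0705 without splenocyte sample 2. The Tnf, Zfp36 and Zfp36l1 probes were thus all lower in the lines, and a link between them was not tested.

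Targets and regulators of NF-kappaB, a factor that drives several members, were read next. Of 20 genes 19 were tested, with 2 higher, 7 lower and 10 not called, and a median of −0.52. The number lower was 12 under quantile normalization, and 11 with the percentile over bright probes, with a mean trend in the fit or without line 1. Cd69, Irf1 and Nfkbiz were 7.61-fold, 6.46-fold and 4.31-fold lower (limma, adjusted p = 0.00132, 0.000748 and 0.00114). Nfkbie, an inhibitor of the pathway, was 2.18-fold higher and the adhesion gene Icam1 was 1.66-fold higher (limma, adjusted p = 0.00502 and 0.0452). The Icam1 call was lost with line 1, splenocyte sample 1 or splenocyte sample 2 left out (adjusted p = 0.113, 0.0882 and 0.184).

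Genes induced by interferon were lower in the lines, and so was Cxcl10. Of 18 genes 17 were tested, with 16 lower, none higher and 1 not called, and a median of −3.60. With genes not above background in a group at their bound, the median was −2.85. Such genes were tested through the splenocytes alone, so they had to be lower, and the 16 include them. Oas2 and Rsad2, which encode antiviral enzymes, were at least 180.4-fold and at least 76.2-fold lower (limma, adjusted p = 0.000165 and 0.000154) and not above background in either line. Oas1a was lower with 1 of 2 lines above background (limma, adjusted p = 0.00213). Its fitted fold was 240.1, which was 102 without line 2, and 138 with line 2 at the detection floor of its array. Cxcl10, at 2.07-fold, changed less than most of these genes and was above background in both lines.

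Genes of the interleukin 10 and STAT3 axis split in direction. All 12 were tested, with 5 higher, 4 lower and 3 not called, and a median of 0.24. Prdm1, which encodes the plasma cell factor BLIMP-1, was 3.47-fold higher (limma, adjusted p = 0.00378). Ahr, the aryl hydrocarbon receptor, was 2.64-fold higher and Il6ra 2.32-fold higher (limma, adjusted p = 0.00896 and 0.00293), with the Il6ra call lost under normexp (adjusted p = 0.152). Bcl6, the germinal centre repressor, read −1.51 and −1.83 in lines 1 and 2 and 5.08 and 5.29 in splenocytes 1 and 2, a 116-fold fall (limma, adjusted p = 0.000141). Socs3, a feedback inhibitor induced by STAT3, was 19.3-fold lower and Jak1 was 7.15-fold lower (limma, adjusted p = 0.000389 and 0.000503). Il10 was thus higher in samples where its receptor chains were lower and the genes of this axis went both ways.

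**Figure D4:**
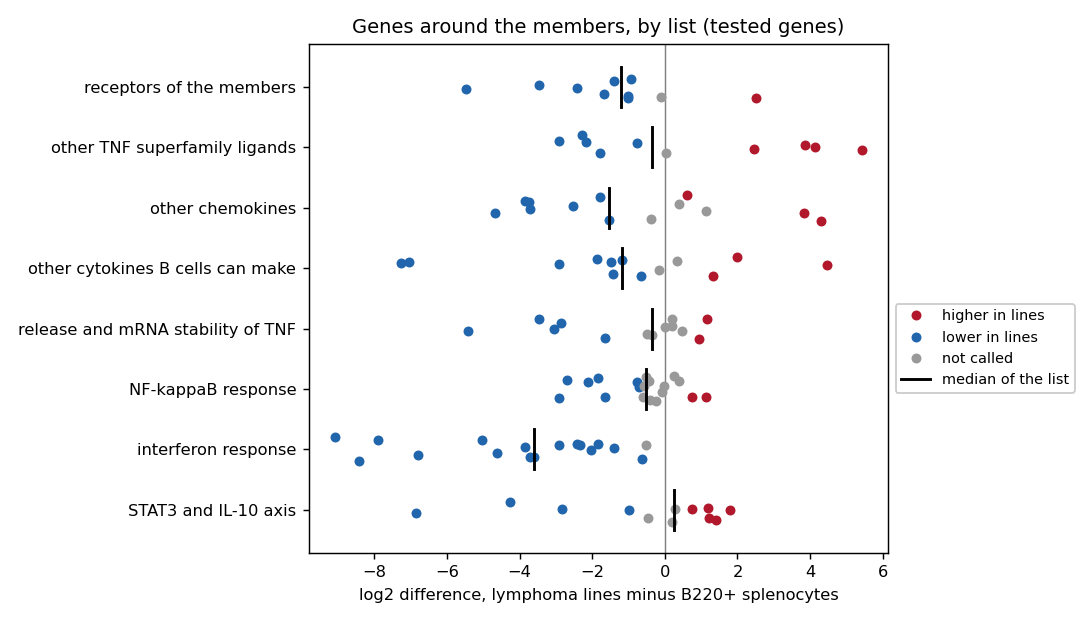
Log2 difference, lines minus splenocytes, of each tested gene of the 8 lists around the members, coloured by call, with a bar at the median of each list. The interferon response list has 16 of 17 tested genes left of 0 and called, and the STAT3 and IL-10 axis has the only median above 0.

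Markers of other cell types differed between lines and splenocytes in both directions, and their part in these results was not tested. In RNA of whole samples, fewer cells of a type and less RNA per cell cannot be told apart. The sums given below add signals of different probes, so the brightest probes rule them. They do not measure the amount of a cell type and can run against the calls. Of 8 T-cell markers, 2 were higher, 3 lower and 3 not called, and their summed linear level, in units of the array's 75th percentile, was 10.96 and 12.45 in the lines and 2.68 and 2.17 in the splenocytes. The sum in the lines was mostly Cd3g and Cd5, which were 20.5-fold and 5.89-fold higher (limma, adjusted p = 0.00025 and 0.00116), while Cd3d, Cd8a and Lat were lower. Cd8a was not above background in either line. Of 7 natural killer cell markers 5 were tested, with 1 higher and 4 lower, and sums of 0.565 and 0.440 in the lines and 0.591 and 0.551 in the splenocytes. Ncr1, Klrk1, Gzma, Gzmb and Eomes were not above background in either line.

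Macrophage and monocyte markers were 1 higher and 7 lower of 8 tested, with sums of 35.6 and 36.0 in the lines and 7.72 and 6.26 in the splenocytes. Lyz2 and Mertk were not above background in either line, and the rise was that of Adgre1 (18.7-fold; limma, adjusted p = 0.000273). Neutrophil markers summed to 0.0427 and 0.0620 in the lines and 9.28 and 4.96 in the splenocytes, with 2 of 3 tested genes lower. Dendritic cell markers were 4 higher and 1 lower of 6 tested. They summed to 1.98 and 1.45 in the lines and 1.35 and 1.35 in the splenocytes. The median difference of the tested dendritic cell markers was 2.51. Itgax went against most of this list: it was not above background in either line and was above background in both splenocyte samples. Plasma cell markers were 3 higher and none lower of 5, with sums of 24.7 and 44.9 in the lines and 54.3 and 71.7 in the splenocytes. The largest part of the splenocyte sums was Jchain, which read 0.87 and 3.97 in lines 1 and 2 and 5.38 and 5.90 in splenocytes 1 and 2 (limma, adjusted p = 0.0525). Erythroid markers were 3 lower of 3 tested, with sums of 2.35 and 0.894 in the lines and 5.65 and 5.72 in the splenocytes. Stromal and endothelial markers were 3 higher and 1 lower of 5 tested, with sums of 0.843 and 0.911 in the lines and 1.61 and 1.59 in the splenocytes.

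Genes next to the members on the chromosome were read by the same fit. Within 250 kilobases of a member probe lay 106 other entries by gene symbol or array name, 93 of them tested. Of these 93, 27 were higher, 37 lower and 29 not called, with a median of −0.21. Over all tested genes, 30.7% were higher and 32.8% lower. Some genes count more than once, such as Bag6, which also has an entry as Bat3, and some entries are transcripts without a gene symbol. Around Lta, Tnf and Ltb, 11 were higher, 19 lower and 11 not called of 41 tested. Of these, class I genes of the H2-Q and H2-D1 type are near-identical copies whose probes may share signal. Nfkbil1 and Lst1, the genes on either side of the cluster, chosen after their values were seen, differed by −0.06 ± 0.22 and −1.33 ± 0.19 (SE; limma, adjusted p = 0.835 and 0.00457). Hspa1a, a heat shock gene of the same region, was 184-fold lower (limma, adjusted p = 0.00084), 106-fold without line 1 and 321-fold without line 2.

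Around Ccl3, Ccl4 and Ccl5, 1 gene was higher, 8 lower and 7 not called of 16 tested. Wfdc17, which encodes a small secreted protein of the whey acidic protein family, was at least 229-fold lower (limma, adjusted p = 9.44e-05). Around Ccl17 and Ccl22, 10 genes were higher, 3 lower and 5 not called of 18 tested, with a median of 0.85. Adgrg1, an adhesion G protein-coupled receptor, was 53.0-fold higher and Ccdc102a 16.5-fold higher (limma, adjusted p = 0.000154 and 0.000284). The Ccl17 and Ccl22 region was the one with more rises than falls, which was not tested against the share over all genes. Around Cxcl10, 3 were higher and 4 lower of 9 tested, with Art3 at least 31.1-fold lower (limma, adjusted p = 0.000191). Around Il10, 2 were higher and 3 lower of 9 tested. On chromosome 17 the transcript CJ068215 was at least 4.41-fold higher (limma, adjusted p = 0.0018). Under normexp its fitted fold was 1.23 and its call was lost (limma, adjusted p = 0.435).

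**Figure D5:**
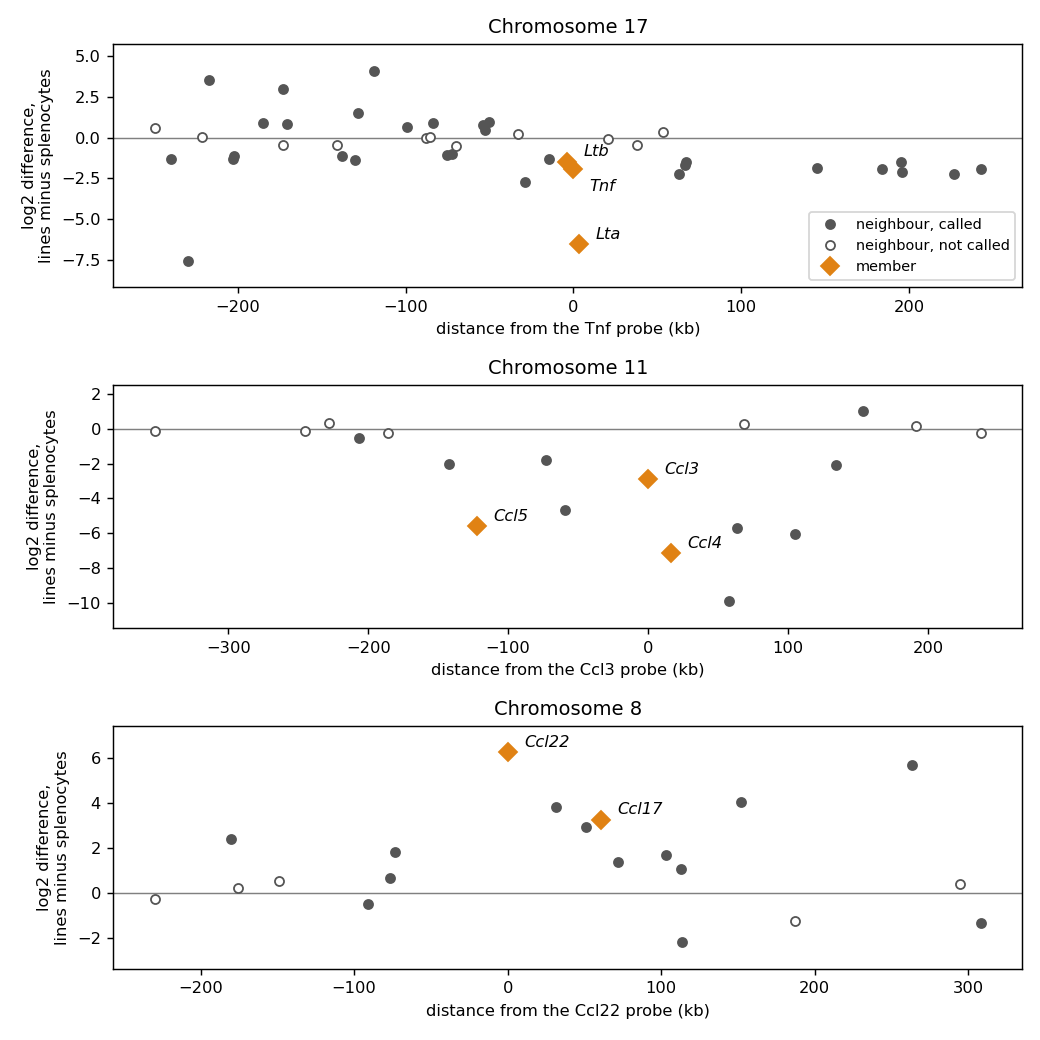
Log2 difference, lines minus splenocytes, of the members (diamonds) and of tested genes within 250 kilobases (circles, filled where called), by distance from a member probe in kilobases. Neighbours of the chromosome 17 and 11 clusters lie on both sides of 0 while the members there lie below it, and 10 of 18 neighbours of Ccl17 and Ccl22 were called higher.

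Genes whose pattern over the 4 arrays was nearest to those of the lymphotoxins and Tnf were found by Euclidean distance of the centred log2 values. For Lta these were Ccdc116 (0.054), Tnik (0.098) and Plekha5 (0.127), with 64 genes within 0.5. All 3 were not above background in either line, unlike Lta, so their distances rest partly on values with no measured level. Ltb had TC1608317 (0.093), Tmem16f (0.096) and Rabac1 (0.105) nearest, with 637 genes within 0.5. The nearest to Tnf were AK081649 (0.073), 8030453O22Rik (0.099) and AK050605 (0.110), with 257 genes within 0.5. Tmem16f and the 3 nearest to Tnf were above background in 1 of 2 lines. A pattern over 4 arrays is mostly the size of 1 difference, and many genes share it.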

How the data were processed

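Total RNA of 2 lymphoma lines and 2 samples of B220+ splenocytes was labelled with Cy3 and hybridised to 1-colour Agilent mouse arrays with 43379 non-control spots. Agilent Feature Extraction read the images (version 9.5.1.1 in the file headers, 9.5 in the submitters' processing notes). Probe positions use the mm8 build, per the file headers. The deposited processed signal is a background-corrected intensity with no normalization between arrays, and the files also give the intensity of each spot before correction and of its local background, per the file headers. Flag columns, deposited as 0 or 1, mark spots well above background, saturated or outlying. The series' deposited value matrix is the processed intensity times 1 factor per array (0.961 and 0.820 for the lines, 1 and 2.10 for the splenocytes), as read from the values.

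Flagged spots were left out (153 probes), spots of a probe were averaged, and log2 signal minus the log2 75th percentile of the array was tested with limma 3.58.1 in R 4.3.3 (lmFit, eBayes, two-sided, no covariate; data.table, version 1.17.8), with Benjamini-Hochberg adjustment over 27402 probes. The fit had 2 residual and 2.42 prior degrees of freedom. Lists and neighbours used the tested probe with the highest mean per gene (18802 genes, 12289 with a RefSeq symbol). The number of arrays limits the precision. The fit was run on simulated data in which few probes changed, whereas most tested probes were called here. That run therefore says nothing about these calls. Named genes are all members, from each list and from the neighbours the up to 3 called genes with the largest rise and the largest fall, receptors of the members and the CXCR3 ligands, and the 3 nearest patterns of Lta, Ltb and Tnf. The members and lists were chosen with earlier results of these data known. Values of some list genes are not reported here. Alternatives tried were background correction, scaling, the filter on dim probes, the probe rule, the deposited matrix, a mean trend, a replicate block and leaving out each sample.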

Additional observations from a re-analysis of the deposited data

How the results depend on the processing

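All 11 member probes kept their call and direction under each alternative that tested them, and 41 of 50 other named genes did; the calls lost on leaving out a sample, under normexp or on median centring are given with their genes above. Icam1 was also lost under quantile normalization (adjusted p = 0.0666), the percentile over bright probes (0.0655) and no filter (0.0986), as were Tnfrsf1b (0.0544) and Ccl27a (0.0645) with no filter. Under normexp, fitted folds were smaller: 48.6 for Lta, 21.1 for Ccl4, 20.8 and 14.6 for the Ccl5 probes, 2.81 for Ccl17 and 4.53 for Ccl22. Normexp adds an offset of 50 units, which exceeds dim signals such as 5.41 and 1.56 units for Ccl22 in the splenocytes. Adding it to both groups makes a fold smaller, and how much of the change it made was not tested. With only probes bright on all arrays, 8 members were testable, 2 higher and 6 lower. Median centring moved the median of all genes by 0.41, quantile normalization by 0.15, normexp by −0.27 and the percentile over bright probes by −0.13; the share of calls that were higher was 64% under median centring against 49.9% as reported. With 1 probe per gene name, 5608 probes were called higher against 8860, since fewer probes were tested (18314). Without a filter, 16220 of 41021 probes were called. Neighbours called higher numbered 15 to 27 with 1 sample left out, against 27: 17 without splenocyte sample 1 and 15 without splenocyte sample 2. List counts that moved by over 1.5 times were TNF ligands lower (5, lowest 2), chemokines higher (3, lowest 1) and lower (7, lowest 3), cytokines lower (8, lowest 5), TNF release genes higher (2, from 1 to 4), NF-kappaB genes higher (2, from 1 to 4) and lower (7, highest 12) and STAT3 axis genes higher (5, lowest 3). The labels' shared replicate numbers were not taken to pair samples (correlation of deviations 0.0152 across genes, 2 pairs); with the replicate block, 3 members stayed higher and 7 lower, and 16748 probes were called against 17753. The slide as a block was not run, as all 4 arrays were on 1 slide and in 1 scan. Dim signal limits Ccl4, with line 2 not above background, the second Ccl5 probe, with neither line, and Ccl22, with neither splenocyte sample.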
